A study of Homo sapiens with 42 samples.

Results

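Chromatin loops were examined in the CXC chemokine cluster of human chromosome 4, which holds the platelet chemokine genes PF4 and PPBP beside CXCL8, CXCL1, CXCL5, CXCL3 and CXCL2. Members were all loops with an anchor starting between 73300000 and 74600000 on GRCh38, and 38 of the 33914 loops of the deposited table met this rule. The loops were mapped by in situ Hi-C, which joins and sequences pieces of DNA that were neighbours in the fixed nucleus, in wild-type K562 cells, an established human leukemia line. Cells were given 25 nM PMA, a phorbol ester that activates protein kinase C and drives K562 toward a megakaryocyte-like state. They were taken at 0 h (untreated), 6 h and 72 h, with 14 samples and 4 biological replicates at each time. A loop here is a pair of anchors of 10 kb each, and its value is the number of contacts read between them, which includes the contacts that any pair of places at that distance would give. The labels do not say that biological replicates were separate cultures, so p-values measure the spread between these libraries.

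CXC chemokines are small secreted proteins that attract leukocytes. CXCL1, CXCL2, CXCL3, CXCL5, CXCL6 and CXCL8 act on neutrophils through the receptors CXCR1 and CXCR2 and are typical targets of the inflammatory factor NF-kB. PF4 (platelet factor 4) and PPBP (pro-platelet basic protein) are made by megakaryocytes, packed into the alpha granules of platelets and released when platelets are activated, and PF4V1 is a close copy of PF4. The cluster arose by gene duplication, and its neighbours are the liver genes ALB, AFP and AFM on one side and the EGF-like growth factor genes EPGN, EREG and AREG on the other. Loops with fixed anchors are known mostly from pairs of CTCF sites that stop cohesin, and others join promoters to enhancers. The table gives contacts only, so levels of RNA or of any cell marker were not analysed here.

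The chemokine genes differed in whether an end of the gene lay in an anchor. The start sites of CXCL1, CXCL3 and CXCL2 each lay in an anchor, with 5, 2 and 1 loops holding an end of the gene. The start site of CXCL8 lay 569 bases outside the nearest anchor, and PF4V1 ended 5.5 kb from one. PF4, PPBP and CXCL5 had no end in an anchor; the nearest anchors lay 40.8 kb from PF4, 41.8 kb from PPBP and 31.3 kb from CXCL5. Each of these 3 genes was enclosed by the same 10 loops, with 1 anchor on either side of it. The other chemokine genes were enclosed by loops as well. These were 10 each for CXCL8, CXCL6 and PF4V1, 8 each for CXCL1 and CXCL3, and 7 for CXCL2. CXCL6 was 21.2 kb from an anchor.

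Promoters are printed for the 3 genes whose start sites lie in anchors, for CXCL8 at the edge of one, for PPBP as the platelet gene that no anchor touches, and for EREG, at whose start the loop with the smallest p-value ended. Each sequence is the 250 bases before the RefSeq start (GRCh38.p14), read 5′ to 3′ on the gene's strand. Capitals mark matches on either strand to NF-kB (GGG, any 5 bases, then CC), AP-1 (spelled TGANTCA), the site of the GATA factors (spelled AGATAA) or the box found before many start sites and known as TATA (spelled TATAAA), where overlapping matches run together. PF4 had no entry.
CXCL1, chr4:73869143-73869392, plus strand: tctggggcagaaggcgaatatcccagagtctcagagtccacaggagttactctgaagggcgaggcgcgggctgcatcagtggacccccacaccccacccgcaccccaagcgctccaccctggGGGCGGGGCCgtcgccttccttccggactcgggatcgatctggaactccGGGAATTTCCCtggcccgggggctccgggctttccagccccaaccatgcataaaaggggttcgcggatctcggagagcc
CXCL3, chr4:74038690-74038939, minus strand: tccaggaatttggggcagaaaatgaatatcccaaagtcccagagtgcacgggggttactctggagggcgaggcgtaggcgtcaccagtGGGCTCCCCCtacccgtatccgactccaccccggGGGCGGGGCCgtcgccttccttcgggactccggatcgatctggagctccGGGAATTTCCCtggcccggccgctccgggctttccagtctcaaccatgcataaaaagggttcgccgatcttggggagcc
CXCL2, chr4:74099196-74099445, minus strand: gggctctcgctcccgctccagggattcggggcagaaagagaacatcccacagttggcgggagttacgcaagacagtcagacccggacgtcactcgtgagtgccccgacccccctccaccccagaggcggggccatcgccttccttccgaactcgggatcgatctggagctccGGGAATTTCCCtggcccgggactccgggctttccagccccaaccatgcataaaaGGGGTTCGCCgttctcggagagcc
CXCL8, chr4:73740319-73740568, plus strand: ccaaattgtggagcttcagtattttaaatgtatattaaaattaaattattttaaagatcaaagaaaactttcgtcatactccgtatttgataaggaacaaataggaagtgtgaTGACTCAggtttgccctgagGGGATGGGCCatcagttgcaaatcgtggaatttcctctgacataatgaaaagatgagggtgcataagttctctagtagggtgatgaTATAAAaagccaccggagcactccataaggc
PPBP, chr4:73988191-73988440, minus strand: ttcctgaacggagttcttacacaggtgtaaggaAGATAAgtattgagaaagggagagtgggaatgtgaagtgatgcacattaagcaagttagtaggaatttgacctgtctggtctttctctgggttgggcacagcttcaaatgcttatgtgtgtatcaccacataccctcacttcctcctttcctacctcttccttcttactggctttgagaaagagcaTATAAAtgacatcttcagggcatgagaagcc
EREG, chr4:74364895-74365144, plus strand: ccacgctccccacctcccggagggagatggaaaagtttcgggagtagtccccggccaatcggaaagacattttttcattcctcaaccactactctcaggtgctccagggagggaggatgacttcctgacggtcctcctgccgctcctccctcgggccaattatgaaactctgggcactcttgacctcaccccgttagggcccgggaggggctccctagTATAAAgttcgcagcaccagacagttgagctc

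The promoters of CXCL1, CXCL3 and CXCL2 each held the run GGGAATTTCC within 79 bases of the start. In all, 5 of the 8 chemokine promoters of the window held this run on either strand (CXCL6, CXCL1, CXCL5, CXCL3 and CXCL2), against 50 of 35116 promoters of the same length, or 0.142%. The run was picked after the matches were seen. The promoters of CXCL1, CXCL3 and CXCL2 resemble each other, and so do those of CXCL6 and CXCL5, so the 5 are not independent. The looser NF-kB pattern is common, with a match in 54.4% of promoters. CXCL8 held a match to that looser pattern, GGGATGGGCC, at 117 bases. Its stretch tggaatttcc differs from the run GGGAATTTCC in the first base only, so neither pattern marks it. The count of promoters with the run is thus one of exact matches. CXCL8 also held an AP-1 match 137 bases before the start, a pattern found in 6.57% of promoters, and a TATA box match at 31 bases. PPBP held no NF-kB or AP-1 match in this stretch, a GATA match at 217 bases (9.17% of promoters hold one) and a TATA box match at 31 bases (10.7%). After global alignment the CXCL1 and CXCL3 promoters were identical at 81.4% of aligned positions, CXCL3 and CXCL2 at 73.3%, and CXCL6 and CXCL5 at 85.3%, while CXCL1 and PPBP reached 43.5%. Between the CXCL1, CXCL3 and CXCL2 promoters and those of CXCL6 and CXCL5, identity ran from 48.9% to 51.5%. Whether reads from these similar stretches were placed in part at the other copies was not tested. A match is a description of letters and does not show that a factor was bound.

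**Figure D1:**
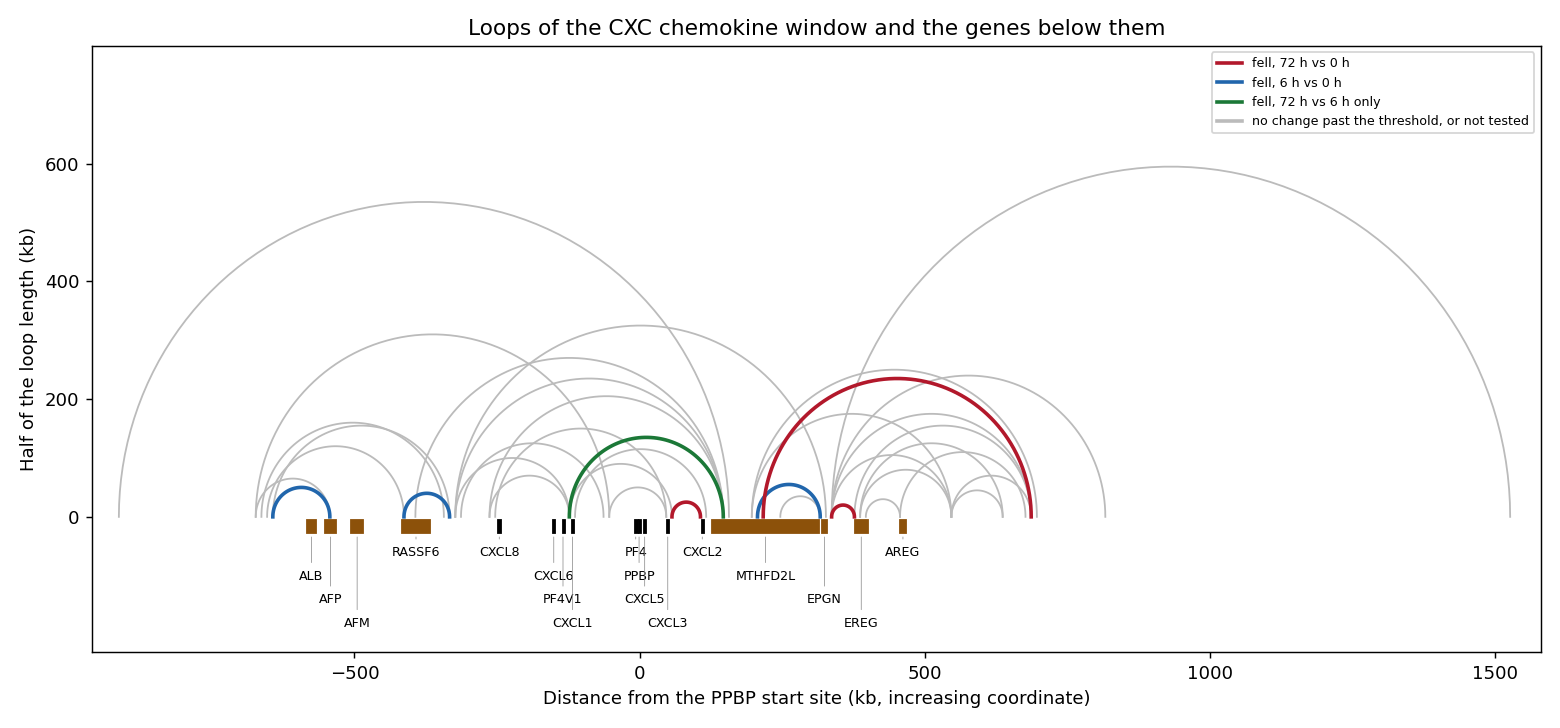
Arcs join the centres of the anchors of the 38 loops, with distance from the PPBP start site in kb on the x axis and the arc height, length divided by 2, in kb on the y axis; black boxes are chemokine genes and brown boxes their neighbours. The red, blue and green arcs are the loops that fell past the threshold at 72 h (3), at 6 h (3) and from 6 h to 72 h alone (1), and no anchor lies at PF4, PPBP or CXCL5.

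Libraries held between 736929 and 1472197 contacts over all loops, and between 992 and 2109 of them fell on the 38 loops. The window's share of all loop contacts was 0.137% ± 0.0060 (SD, n = 4) before PMA, 0.133% ± 0.0075 (SD, n = 4) after 6 h and 0.136% ± 0.0040 (SD, n = 3) after 72 h, with overlapping ranges. Of the 72 h libraries, those of replicates 3 and 4 differed by about as much as counting error gives over all tested loops (chi-square divided by its degrees of freedom 1.003, p = 0.367) and were counted as 1 sample in each mean and SD. Replicates 3 and 4 were also close at 0 h (1.018, chi-square p = 0.0253) and 6 h (1.023, chi-square p = 0.00621), where they were kept apart. All other pairs within a time gave 1.056 to 1.272. The main edgeR tests kept all 12 libraries as separate samples. Of the 38 loops, 36 had enough counts for a test. The other members, loop8926 and loop8957, of 1070 kb and 1190 kb, had 74 and 76 contacts over all 12 libraries. Lengths ran from 40 kb to 1190 kb. The tested members had a median length of 235 kb and a median mean count of 36.25, against 290 kb and 29.25 over all 24132 tested loops.

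The comparison of 72 h with 0 h asks which loops differ in the differentiated state. In the chemokine window few did: 3 of 36 loops changed, all of them falling, which is 8.33% of the window (edgeR quasi-likelihood test, Benjamini-Hochberg adjusted p under 0.05). Of all tested loops 33.6% changed, 16.7% rising and 16.9% falling, and on chromosome 4 it was 27.8%. In the window 0 loops rose (edgeR), where 7 of 36 had an unadjusted p under 0.05 in either direction (43.4% of all tested loops did) and DESeq2 also found 0. The share of all tested loops that rose by DESeq2 was not counted. Rises passed the threshold with some other settings, for loop8939 (0.45 with a mean count of at least 20, edgeR adjusted p = 0.0359) and loop8955 (0.33, 0.0467). Loop8939 (250 kb) joins chr4:73670001-73680000 to chr4:73920001-73930000 and encloses CXCL8, CXCL6, PF4V1 and CXCL1. Its estimate in the main fit was 0.39 (95% interval 0.04 to 0.75, edgeR adjusted p = 0.0776). The median absolute log2 fold change of the members was 0.19, against 0.33 over all tested loops and 0.33 on chromosome 4. In 18 of the 36, or 50%, the 95% interval of the change lay within 1.5-fold in both directions, against 32.6% of all tested loops and 26% on chromosome 4. In the other 18 the interval reached past 1.5-fold, and for 33 loops that missed the threshold the estimates ran from -0.39 to 0.53 on the log2 scale.

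**Figure D2:**
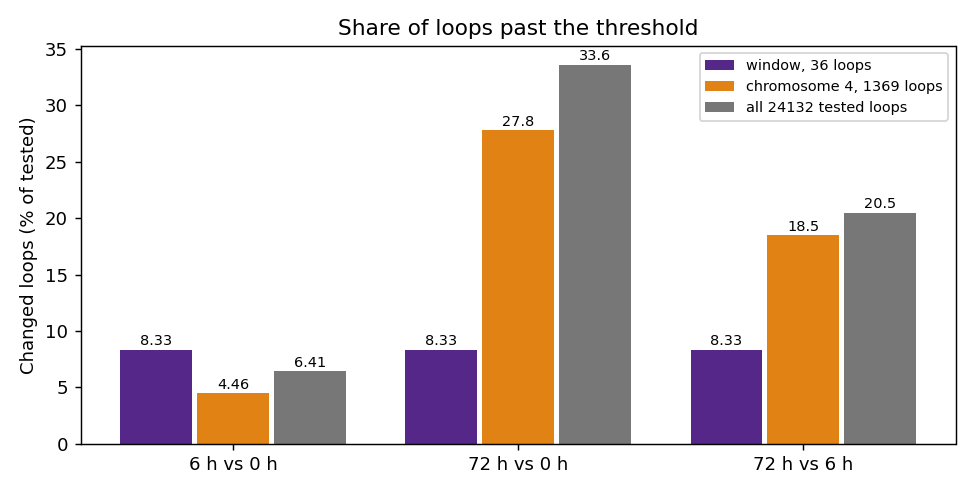
Bars give the share of tested loops past the threshold (edgeR adjusted p under 0.05) in percent on the y axis for each pair of times on the x axis, in the window, on chromosome 4 and over all tested loops. The window stays at 8.33% in each comparison, while the share of all tested loops is 6.41%, 33.6% and 20.5%.

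Among the loops at chemokine genes, the one that fell at 72 h was loop8947, of 50 kb, which had the highest mean count of the window. One anchor, chr4:74090001-74100000, holds all of CXCL2, and the other, chr4:74040001-74050000, begins 1312 bases upstream of the CXCL3 start site and holds an end of the long noncoding RNA gene LOC105377275. Its normalized counts, in contacts per 1000000 contacts in tested loops, were 97.0, 96.8, 82.8 and 77.3 in replicates 1 to 4 at 0 h and 104, 89.7, 103 and 96.5 at 6 h. At 72 h they were 74.3, 72.3, 57.2 and 73.2. All 72 h libraries lay below all libraries of the other times, while 0 h and 6 h overlapped. The means were 88.5 ± 10 (SD, n = 4), 98.4 ± 6.7 (SD, n = 4) and 70.6 ± 4.8 (SD, n = 3). The log2 fold change was 0.13 at 6 h (SE 0.12, adjusted p = 0.593), -0.37 at 72 h (SE 0.12, adjusted p = 0.0153) and -0.49 from 6 h to 72 h (SE 0.13, adjusted p = 0.00213), by edgeR. Short loops fell widely at 72 h: of all tested loops of 100 kb or less, 36.3% fell, and in the window 2 of 8 did. With a correction for loop length the 72 h change of loop8947 missed the threshold (edgeR adjusted p = 0.115), nor was it without 0 h replicate 1 (0.0703), without 72 h replicate 3 (0.0756) or with DESeq2 (0.0585). Within replicates 1 and 2 it was -0.42 and within replicates 3 and 4 it was -0.28, neither past the threshold.

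CXCL1 lay at the busiest chemokine anchor, chr4:73860001-73870000, which joined 4 loops, and the next 10 kb held the gene's other end and loop8945. The loop from CXCL1 into MTHFD2L, loop8944 (270 kb, other anchor chr4:74130001-74140000), passes over PF4, PPBP, CXCL5, CXCL3 and CXCL2. MTHFD2L encodes a mitochondrial enzyme of folate metabolism. Normalized counts of loop8944 were 29.0, 41.8, 21.3 and 30.7 at 0 h, 37.3, 32.7, 42.5 and 26.5 at 6 h and 20.3, 24.1, 26.0 and 25.0 at 72 h. The 72 h libraries all lay below the 6 h libraries, the nearest being 26.0 and 26.5, and overlapped with those of 0 h. It fell from 6 h to 72 h by 0.53 on the log2 scale (SE 0.20, edgeR adjusted p = 0.0417), whereas against 0 h the change was -0.39 (95% interval -0.78 to 0.00, edgeR adjusted p = 0.119). The fall from 6 h lost the threshold when 6 h replicate 1 or 3 was left out (0.109 and 0.125), when 72 h replicate 1, 2 or 4 was left out (0.124, 0.0664 and 0.0547), with DESeq2 (0.151) and with the length correction (0.0534).

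The other loops at CXCL1 showed no change past the threshold at any time. Loop8936 (200 kb) reached from CXCL1 toward RASSF6, and loop8940 (140 kb) reached the noncoding RNA gene INKILN just before CXCL8. Their log2 fold changes at 72 h were 0.01 (95% interval -0.36 to 0.38) and 0.20 (-0.12 to 0.53). Loop8943 (180 kb) and loop8945 (230 kb) went the other way, over PF4 and PPBP, to the upstream side of CXCL3 and of CXCL2, with 0.19 (-0.23 to 0.60) and -0.19 (-0.52 to 0.15). Mean normalized counts of the 4 loops at 0 h ran from 23.6 to 39.1. Loop8936 averaged 29.8 ± 3.1 (SD, n = 4) before PMA, 31.3 ± 5.4 (SD, n = 4) after 6 h and 30.0 ± 6.3 (SD, n = 3) after 72 h. In loop8943 the 0 h libraries lay close together, at 23.9, 23.7, 23.8 and 22.7, while 72 h spread from 17.7 to 38.1. Loops that share the CXCL1 anchor thus had estimates of both signs at 72 h; differences between loops were not tested.

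CXCL3 held the anchor chr4:74030001-74040000 of 2 loops. Loop8942 (300 kb) joined it to chr4:73730001-73740000, which stops 569 bases before the CXCL8 start site. The counts of loop8942 were 36.2, 29.4, 31.4 and 30.7 at 0 h, 25.5, 24.3, 24.1 and 21.7 at 6 h and 29.2, 28.1, 28.1 and 22.3 at 72 h. All 6 h and all 72 h libraries lay below all 0 h libraries. The log2 fold changes of -0.43 at 6 h (95% interval -0.82 to -0.03, edgeR adjusted p = 0.2) and -0.27 at 72 h (-0.64 to 0.11, edgeR adjusted p = 0.275) did not pass the threshold. Falls without overlap between 0 h and 6 h were seen in 4 of 36 members and in 5.77% of all tested loops, and between 0 h and 72 h in 5 of 36 members and in 14.1%. Loop8946 (100 kb), from CXCL3 to an anchor on the far side of PF4 and PPBP at chr4:73930001-73940000, is the shortest loop that encloses the platelet genes. It averaged 45.3 ± 5.4 (SD, n = 4) before PMA, 43.5 ± 7.8 (SD, n = 4) after 6 h and 41.2 ± 3.2 (SD, n = 3) after 72 h, and its log2 fold change at 72 h was -0.16 (95% interval -0.47 to 0.16).

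PF4, PPBP and CXCL5 were thus enclosed by loops from CXCL1, CXCL3 and beyond, and 9 of the 10 enclosing loops were tested. Against 0 h, 0 of the 9 changed by edgeR at either time, where 6.41% of all tested loops changed at 6 h and 33.6% at 72 h. The estimates at 72 h ran from -0.39 to 0.25 with a median of -0.16. With other settings, 72 h falls passed the threshold for loop8941 with the length correction (-0.42, edgeR adjusted p = 0.038) and within replicates 1 and 2 (-0.59, 0.0384), and for loop8944 without 0 h replicate 3 (-0.51, 0.0481). At 6 h loop8941 fell with the length correction and the replicate block together (-0.50, edgeR adjusted p = 0.0427). From 6 h to 72 h 1 of the 9 fell, loop8944. The intervals of 3 of the 9 at 72 h lay within 1.5-fold in both directions, so that for the others a change of that size at the platelet genes' loops was not resolved at this depth.

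**Figure D3:**
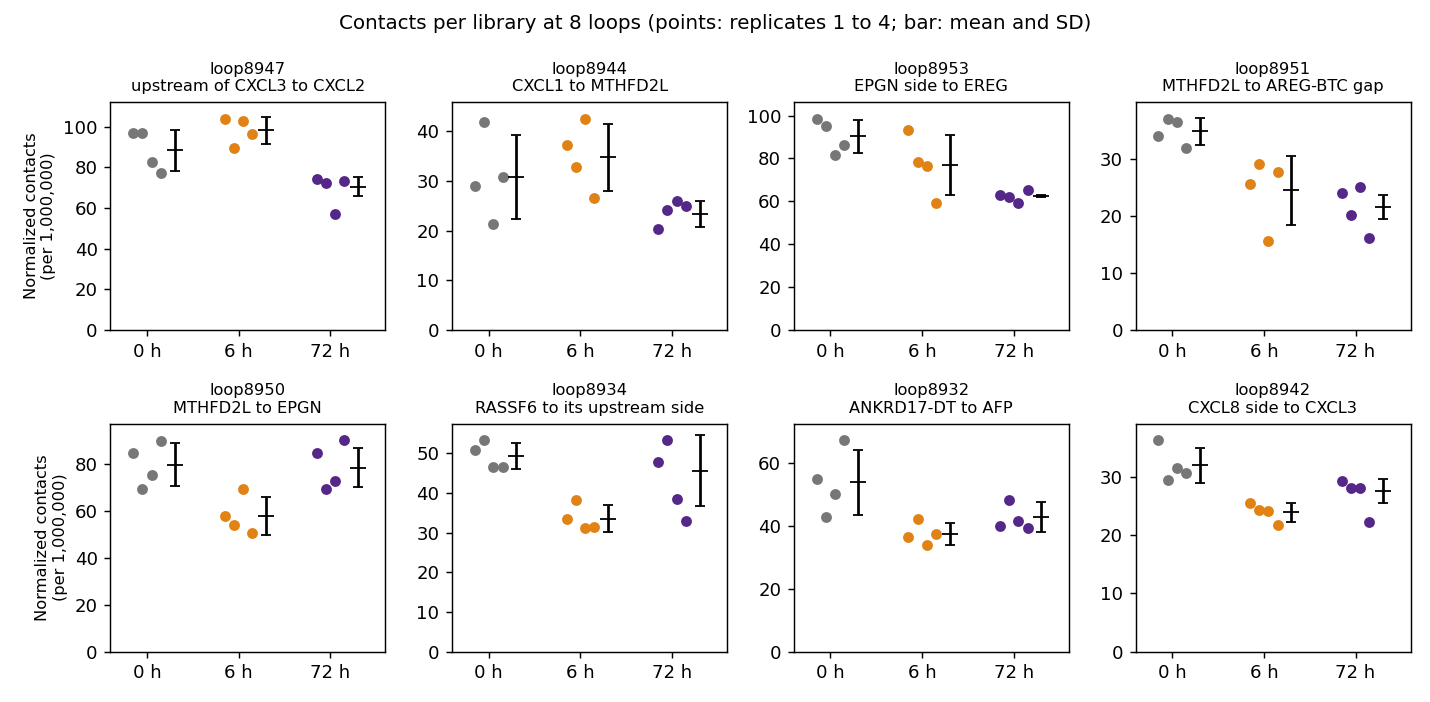
Each panel shows 1 loop, with time on the x axis and normalized contacts per 1000000 on the y axis; points are replicates 1 to 4 in order and bars are mean and SD (n = 4 at 0 h and 6 h, n = 3 at 72 h). Replicates 3 and 4 of 72 h were averaged before the mean and SD were taken. In loop8947 and loop8953 every 72 h library is below every 0 h library, and in loop8950 the 6 h libraries dip and the 72 h libraries return.

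The larger falls at 72 h lay beyond the chemokines, 1 at a growth factor gene and 1 with no gene end in either anchor. EREG (epiregulin), EPGN (epigen) and AREG (amphiregulin) encode ligands of the EGF receptor family. Loop8953 (40 kb) joined chr4:74360001-74370000, with the EREG start site, to chr4:74320001-74330000, 3212 bases past the end of EPGN. Its counts were 98.5, 94.9, 81.5 and 86.4 at 0 h, 93.1, 78.5, 76.4 and 59.1 at 6 h and 62.8, 62.2, 59.3 and 65.2 at 72 h. Every 72 h library lay below every 0 h library, and the 6 h libraries overlapped with both. The mean went from 90.3 ± 7.8 (SD, n = 4) to 62.4 ± 0.33 (SD, n = 3). The small SD at 72 h comes from averaging replicates 3 and 4, at 59.3 and 65.2, before it was taken. It understates the spread of the libraries. On the log2 scale the change was -0.55 (SE 0.13; edgeR adjusted p = 0.00029). It stayed past the threshold in each of the 12 fits that left out a library, with adjusted p from 0.000141 to 0.00401, and with the length correction. Within replicates 1 and 2 the change was -0.65, and within replicates 3 and 4 it was -0.43 (edgeR adjusted p = 0.0034 and 0.0791).

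The largest fall of the window was in loop8951 (470 kb), from chr4:74200001-74210000 inside MTHFD2L to chr4:74670001-74680000, 215 kb beyond AREG. Its counts were 34.0, 37.0, 36.4 and 31.8 at 0 h, 25.5, 29.0, 15.6 and 27.7 at 6 h and 23.9, 20.1, 25.0 and 16.1 at 72 h. The 0 h libraries lay above all others, and 6 h and 72 h overlapped. By edgeR its log2 fold change at 6 h was -0.47 (SE 0.20, adjusted p = 0.138), and at 72 h it was -0.71 (SE 0.20, adjusted p = 0.00247). It was past the threshold at 72 h in all 12 fits without a library (adjusted p 0.00176 to 0.0207). Within replicates 1 and 2 it was -0.69 (edgeR adjusted p = 0.0448) and within replicates 3 and 4 it was -0.75 (0.0574). This was the member that fell by more than 1.5-fold; 19.2% of all tested loops changed by an adjusted p under 0.05 and at least that fold.

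Other loops that share an anchor with these had estimates above 0 at 72 h. The anchor at chr4:74320001-74330000 joined 5 loops, of which 4 were tested: beside loop8953, the log2 fold changes at 72 h were 0.06 for loop8954, 0.27 for loop8955 and 0.53 for loop8956, none of them past the threshold. At the far anchor of loop8951 the other 3 loops gave 0.27 (loop8955), 0.15 (loop8958) and 0.22 (loop8964). Loop8961 (60 kb), which joins the end of EREG to the start of AREG, measured -0.31 at 72 h (95% interval -0.58 to -0.04, edgeR adjusted p = 0.0663), and the other loop at AREG, loop8962 (220 kb), measured 0.11 (-0.31 to 0.53). Differences between loops of one anchor were not tested.

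The comparison of 6 h with 0 h asks which loops moved early. It called 3 of 36 members, or 8.33%, all falling, where 6.41% of all tested loops changed, 4.07% falling and 2.34% rising. By edgeR 0 members rose, and 9 had an unadjusted p under 0.05 in either direction (20.3% of all tested loops did). In 21 of 36 the 95% interval lay within 1.5-fold in both directions, against 44.8% of all tested loops. None of the 3 held an end of a chemokine gene, which 8 of the 36 tested members did. Of all tested loops of 100 kb or less 14% fell at 6 h, and 2 of these 3 loops were of that length. The smallest p-value of the 3 was that of loop8950 (110 kb), whose fall was the smallest of the 3. It runs from inside MTHFD2L to chr4:74300001-74310000, which holds the end of MTHFD2L and the start of EPGN. Its counts were 84.7, 69.3, 75.3 and 89.8 at 0 h, 57.8, 54.2, 69.3 and 50.7 at 6 h and 84.9, 69.3, 72.8 and 90.2 at 72 h. The 6 h libraries were the low ones, with replicate 3 of 6 h level with the lowest library of the other times. By 6 h it fell by 0.48 on the log2 scale (SE 0.14, edgeR adjusted p = 0.0192), and it rose by 0.47 from 6 h to 72 h (SE 0.14, edgeR adjusted p = 0.00761). At 72 h the change from 0 h was 0.00 (95% interval -0.25 to 0.24). Both comparisons use the 6 h libraries, so the values are not independent. The rise lost the threshold with DESeq2 (adjusted p = 0.054) and within either pair of replicates (edgeR adjusted p = 0.0982 and 0.108). Within replicates 1 and 2 the 6 h change was -0.48 and within replicates 3 and 4 it was also -0.48, neither past the threshold alone. The 6 h call was lost when 0 h replicate 1 or 4 was left out (edgeR adjusted p = 0.0864 and 0.0665), when 6 h replicate 2 or 4 was left out (0.0664 and 0.0576), and with DESeq2 (0.0681). The neighbouring loop8952 (70 kb), which shares the EPGN anchor and starts 40 kb nearer to it, gave 0.04 at 6 h (95% interval -0.23 to 0.30).

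The other early falls lay upstream of the chemokines. RASSF6 encodes a member of the RASSF family of Ras-association domain proteins. Loop8934 (80 kb) joined an anchor at its far end, chr4:73570001-73580000, to chr4:73650001-73660000 on the upstream side of its start. Counts of loop8934 were 50.7, 53.2, 46.4 and 46.6 at 0 h, 33.3, 38.3, 31.1 and 31.4 at 6 h and 47.8, 53.2, 38.5 and 33.0 at 72 h. The 6 h libraries lay below all 0 h libraries, and the 72 h libraries overlapped with both. It fell by 0.55 at 6 h on the log2 scale (SE 0.17, edgeR adjusted p = 0.0303), with -0.20 at 72 h (95% interval -0.51 to 0.10). Loop8932 (100 kb) ran from the noncoding gene ANKRD17-DT over ALB to the body of AFP, the fetal counterpart of albumin. Its counts were 55.0, 42.7, 50.2 and 67.1 at 0 h, 36.3, 42.1, 34.0 and 37.4 at 6 h and 39.8, 48.2, 41.6 and 39.3 at 72 h. The 6 h libraries again lay below those of 0 h, though 42.1 and 42.7 nearly met. By edgeR its log2 fold change was -0.50 at 6 h (SE 0.16, adjusted p = 0.0399), and the 72 h value was -0.35 (adjusted p = 0.0662). Each of these 6 h calls was lost in 5 of the 12 fits without a library, with adjusted p of up to 0.0898 for loop8934 and 0.174 for loop8932. For both loops these were replicate 1 of 0 h and replicates 1, 3 and 4 of 6 h, with replicate 2 of 0 h for loop8934 and replicate 4 of 0 h for loop8932. DESeq2 (0.103 and 0.119), the length correction (0.0728 and 0.0798) and scaling to the total count (0.0521 and 0.0675) also lost them. Within replicates 1 and 2 and within replicates 3 and 4 the changes were -0.54 and -0.57 for loop8934 and -0.35 and -0.72 for loop8932, none past the threshold.

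**Figure D4:**
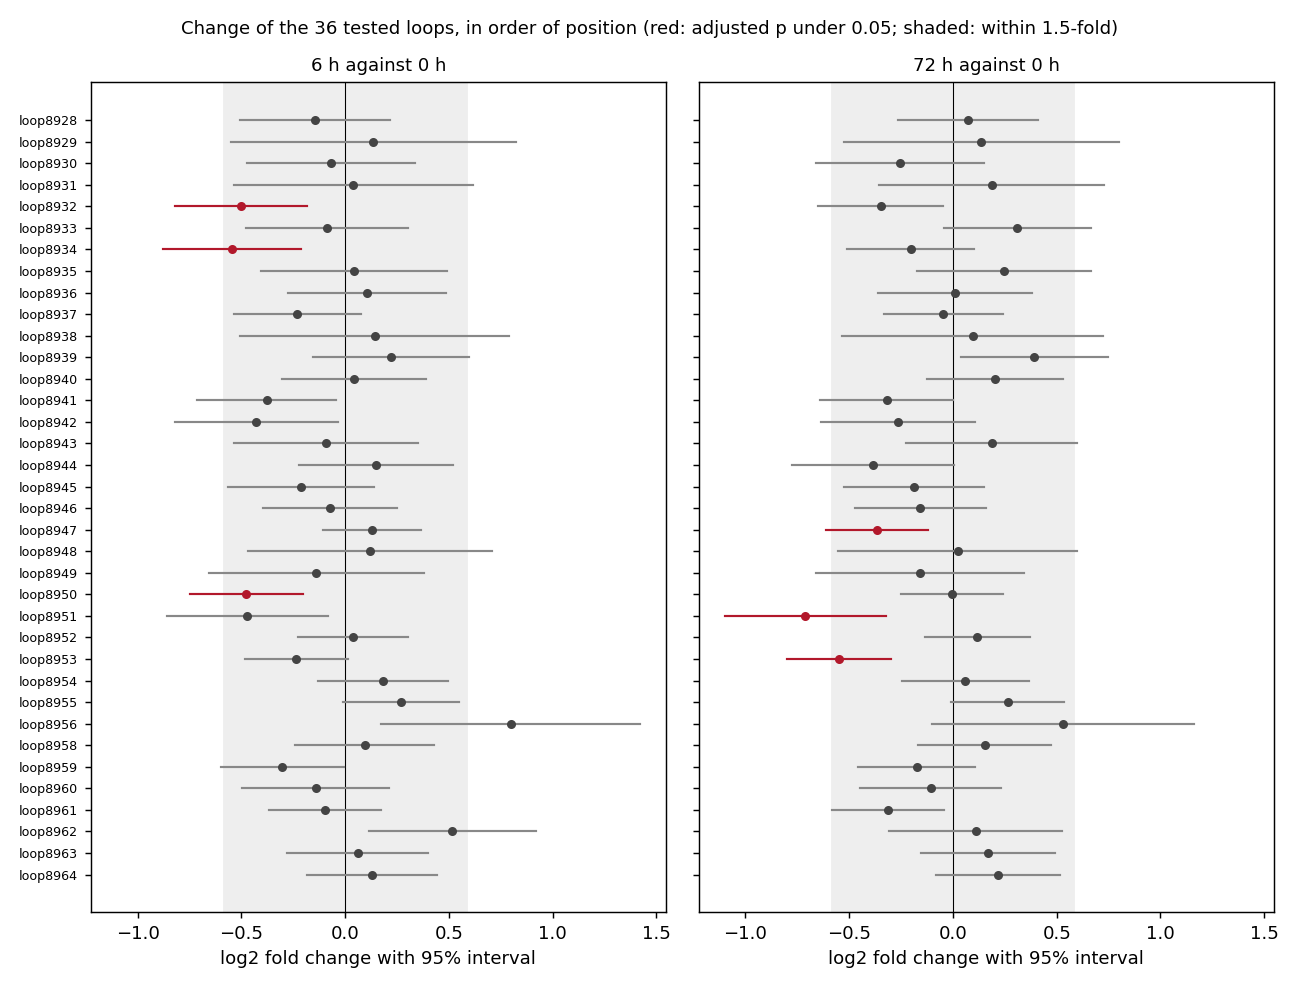
Points are log2 fold changes of the 36 tested loops in order of position on the y axis, with 95% intervals, for 6 h (left) and 72 h (right) against 0 h on the x axis; red marks an adjusted p under 0.05 and the shaded band is 1.5-fold either way. The 3 red loops at 6 h are not those at 72 h, all 6 lie below 0, and most other intervals include 0. Red at a single time does not mean that the times differ. Of the 6, loop8947 and loop8950 alone changed past the threshold between 6 h and 72 h.

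Between 6 h and 72 h 3 of 36 members changed, or 8.33%, against 20.5% of all tested loops: loop8947 and loop8944 fell and loop8950 rose, where 9.81% of all tested loops fell and 10.7% rose. Of the members, 7 had an unadjusted p under 0.05 (33.3% of all tested loops did). Tested over the 3 times together, 6 members changed (loop8932, loop8934, loop8947, loop8950, loop8951 and loop8953), or 16.7%, against 36.9% of all tested loops. The other 29 loops passed no pairwise threshold. At 72 h against 0 h these 29 had estimates from -0.32 to 0.53, and in 16 of them the interval lay within 1.5-fold in both directions. In the authors' deposited table all 38 loops had the class static, as did 95.6% of all loops. Of the 31 with a value in the authors' deposited adjusted p column headed for 6 h, 0 were under 0.05 and the lowest was 0.0683, for loop8947. The column headed for 72 h was not examined. The share of all loops under 0.05 in the 6 h column was not counted, so the 0 has no background beside it.

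Just outside the window, loop8966 (420 kb), whose first anchor starts at 74870001, is the nearest tested loop on the right and rose at 72 h, by 0.73 on the log2 scale (adjusted p = 0.00724 by edgeR). On the left, loop8925 and loop8927 end in an anchor that starts at 73250001. Their log2 fold changes at 72 h were -0.34 and -0.33, neither past the threshold (edgeR adjusted p = 0.0794 and 0.0856). The loops with the most similar course were sought over the 12 libraries among 16014 other loops by Pearson correlation of log2 normalized counts. For loop8947 the closest was loop29192 on chromosome 17 (r 0.967), and for loop8953 it was loop22520 on chromosome 11 (r 0.937). These are the highest of many correlations and say only that the libraries rank alike.

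Loops at related genes were counted from lists that were chosen with earlier results of these data known. At 3 of the 9 chemokine genes of the window (CXCL1, CXCL3 and CXCL2), 1 of 8 tested loops changed at 72 h, a fall, with a median log2 fold change of -0.17. At 7 of 12 neighbour genes, 2 of 13 rose and 1 fell, with a median of 0.09. The rises were loop8969 (0.87) and loop8970 (0.55) at PARM1, beyond the window, and the fall was loop8953 at EREG. At 4 of 15 other chemokine genes, 2 of 7 loops rose and 1 fell, the rises being loop20329 (0.79) and loop20334 (0.53) at CXCL12 on chromosome 10. At 7 of 11 genes of NF-kB factors and inhibitors, 1 of 10 rose and 4 fell with a median of -0.31. The rise, loop15038 (0.32), and the falls of loop15045 (-0.30) and loop15046 (-0.33) share an anchor at TNFAIP3. The other falls were loop20873 at NFKB2 (-1.38) and loop13742 at NFKBIE (-0.45). At 2 of 12 genes of platelet granule proteins, 1 of 3 rose and 1 fell, the rise being loop27668 at THBS1 (0.75). With any overlap of gene and anchor counted, 7 of 23 rose and 1 fell. At 4 of 8 EGF family genes, 0 of 8 rose (edgeR) and 1 fell; 7 of these 8 loops are members of the window, and the fall is again loop8953. Over all tested loops 33.6% changed and the median was 0.01.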

How the data were processed

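In situ Hi-C contacts of K562 cells at 3 times of PMA treatment were analysed from the one table the authors deposited. It holds raw contact counts per loop for 30 technical replicates, per the file headers, with log2 fold changes, an adjusted p-value and a class; loop positions, the other values, are deposited with starts counted from 0 and given here from 1. Juicer 1.5.6, DESeq2 and hg38 are named in the submitters' processing notes; the loop caller is not given in the sources used here. Columns of replicates 3 and 4 carry no run number and were taken to hold both sequencing runs. Technical replicates were summed into 12 libraries of 736929 to 1472197 contacts, so that counts of single loops (median mean count 36.25 in the window) limit the precision.

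The test was edgeR 4.0.16 under R 4.3.3 on counts of all 33914 loops (filterByExpr with minimum count 10 and minimum total 15, TMM, quasi-likelihood test, no covariate, default prior count), with Benjamini-Hochberg adjustment over 24132 tested loops and a threshold of 0.05. The standard error is the log2 fold change divided by the root of F, and 95% intervals use the fit's degrees of freedom. The code was tested on simulated data. Alternatives were DESeq2 1.42.0, other scalings, filters and thresholds, a loess offset on loop length (span 0.3), blocking on the replicate number, a term for replicates 1 and 2 versus 3 and 4 (which differ in their number of technical replicates), technical replicates as libraries and leaving out each library. Genes, strands and promoters come from RefSeq tables of GRCh38.p14; all gene list members were matched. A gene was placed at a loop when either of its ends lay in an anchor. Loops past the threshold were given library by library. Each loop at a chemokine gene was described, some library by library and others by mean or estimate. Members and lists were chosen with earlier results of these data known. The result of 1 list is not reported here.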

Additional observations from a re-analysis of the deposited data

Results flagged for a closer look

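The change from 6 h to 72 h was past the threshold in 3 loops, whose changes at the 2 times thereby differed: loop8944 with a log2 fold change of -0.53, loop8947 with -0.49 and loop8950 with 0.47 (edgeR adjusted p = 0.0417, 0.00213 and 0.00761). One library stood apart from its group: replicate 4 of 0 h had a normalized count of 22.7 for loop8943, below the 23.7 to 23.9 of the other libraries. Of 26 groups of 4 libraries examined 1 was found, and chance gives 1.3.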

How the results depend on the processing

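Of the 9 pairwise calls, all kept their direction under every alternative run. All 9 were past the threshold with RLE scaling, no filter, a mean count of at least 20, the replicate block and technical replicates as libraries. So they were with the term for replicates 1 and 2 versus 3 and 4, and with 72 h replicates 3 and 4 summed. A prior count of 2 (added after the data were seen) also kept all 9. At 6 h against 0 h the count of 3 became 1 with total count scaling and 0 with DESeq2 (with or without independent filtering), within either pair of replicates (1 with 2, or 3 with 4) and at a threshold of 0.01. For 72 h against 0 h the count of 3 became 5 with no low-count filter, with a mean count of at least 20 and with technical replicates as libraries, and 0 within replicates 3 and 4. Rises appeared for loop8939 with that mean count, total count scaling, technical replicates as libraries and without 0 h replicate 1, and for loop8955 with that mean count, technical replicates as libraries, within replicates 1 and 2 and without 72 h replicate 4. Falls appeared for loop8932 and loop8961 with no filter. At 72 h against 6 h the count of 3 became 1 with DESeq2 and within replicates 3 and 4 and 0 within replicates 1 and 2. Over the 3 times the count of 6 became 3 with DESeq2 and 2 within either pair of replicates. Leaving out 1 library gave 0 to 3 loops at 6 h, 2 to 4 at 72 h, 2 to 5 for 72 h against 6 h and 5 to 8 over the 3 times. Apart from the scalings, calls over all tested loops were not counted under these settings, so the window counts have no background beside them. Fits within pairs of replicates have fewer libraries; other causes were not tested. With the length correction 4 calls were lost (loop8932 and loop8934 at 6 h, loop8947 at 72 h, loop8944 from 6 h) and falls were added for loop8951 at 6 h and loop8941 at 72 h. Samples with the same replicate number correlated by 0.01 to 0.12 in their deviations, over 0.1 in 1 of 12 pairs. Pairs with different numbers ran from -0.07 to 0.04. The main fit did not pair the samples by number, and what the same-number pairs share was not tested. The replicate block left the pairwise counts at 3, 3 and 3. Lists depended on gene placement (gene ends in the anchor, ends within 10 kb, any overlap). Of platelet granule loops 1, 5 and 7 rose and 1 fell each time, of 3, 17 and 23. Of other chemokine loops 2, 6 and 3 rose and 1 fell each time, of 7, 15 and 10, with medians of -0.24, 0.06 and 0.04. Of NF-kB loops 1, 2 and 1 rose and 4, 14 and 7 fell, of 10, 30 and 14. The tested members averaged 10.1 to 85.4 normalized contacts per library, which limits what could be seen. Over all tested loops, total count scaling moved the split at 72 h from 4024 rising and 4081 falling to 4667 and 3388, and at 6 h from 565 and 981 to 769 and 731.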
